A study of Rattus norvegicus with 12 samples.

Results

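Day 14 wounds were set against day 3 wounds of diabetic rats over 8 of the 12 RNA sequencing libraries of the series. All libraries labelled with either day were taken, 4 a day, and each day held 1 library of the control, d-SMG, s-GAG (labelled GAG) and Alg groups, so that each treatment gave 1 pair of libraries. Control wounds received saline, d-SMG is the dried mucus gel of the snail *A. fulica*, s-GAG is the sulfated glycosaminoglycan of that gel, and Alg is a commercial alginate dressing. The animals were male SD rats aged 8 to 12 weeks. In every group, controls included, diabetes had been induced with streptozotocin (STZ), which destroys the insulin-producing cells, and a circular full-thickness wound had been punched into the skin of the back. The study itself names neuropathy, lasting hyperglycemia and mechanical stress as features of human diabetic foot ulcers that this model may lack. The labels give skin as the tissue and tie no library to an animal. A p-value below therefore treats the 4 treatments as replicates of a day, and any response that differed between treatments counted as spread.

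A skin wound passes through inflammation, in which neutrophils and then macrophages clear debris, through the growth of granulation tissue with new vessels and fibroblasts, and through closure by keratinocytes and remodelling of collagen. Keratinocytes at the wound edge switch on the stress keratins Krt6, Krt16 and Krt17, and a cornified barrier forms once the surface is covered. In diabetes the early phases are known to last longer and the growth of vessels to be weaker.

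The 8 libraries held from 13748887 to 23921685 reads on genes. Reads of a gene are given as CPM (reads of a gene scaled with TMM to a common library size), always in the order control, d-SMG, s-GAG and Alg. Before any result, 2 libraries stood apart. The d-SMG library of day 3 held almost no keratinocyte RNA, with Krt14, the keratin of the basal epidermal layer, at 21.2 CPM against 3094 to 5678 CPM in the other 3 libraries of that day. Skeletal muscle markers took 20.9% of its reads. The s-GAG library of day 14 lay farthest along the second principal component and held 11.3% muscle reads. Their TMM factors were 0.741 and 0.744, while those of the other 6 libraries lay between 0.996 and 1.16. Fitted medians of the gene lists are given with and without both. The share of genes whose level differed more than 2-fold within a pair was 24.7% for control wounds, 34% for d-SMG, 48% for s-GAG and 13% for Alg. The median over genes of the SD between the 4 pair differences was 0.894 on the log2 scale. In bulk tissue, fewer cells of a type and less RNA per cell cannot be told apart.

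No gene of 16110 tested passed an FDR of 0.05 in the quasi-likelihood test of edgeR, in either direction (0% higher and 0% lower on day 14), and the smallest FDR was 0.768. At an unadjusted p under 0.05 that test held 496 genes higher (3.08%) and 302 genes lower on day 14 (1.87%), 4.95% in all, where 5% is the share a test without any difference gives. DESeq2 called 22 genes higher (0.137%) and 17 lower (0.106%). Of all genes tested, 966 were higher in all 4 pairs (6.0%) and 830 were lower in all 4 pairs (5.15%). In 154 genes every day 14 library lay above every day 3 library (0.956%), and in 104 genes below (0.646%). The number of genes under the unadjusted threshold turned on single libraries, from 359 without the d-SMG library of day 14 to 1481 without the s-GAG library of day 14, and it was 500 without the d-SMG library of day 3. The genes below are thus described as higher or lower by their values, and none of them passed the FDR of edgeR. The FDR of edgeR was 0.768 for Sox11, Lilrb4 and Serhl2 and 0.882 for every other gene given with a fold change, unless another value is printed.

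The 12 leading genes on the day 3 side were lower in 4 of 4 pairs, which the choice of the genes fixed, as it did their small p-values. DESeq2, run on the same counts, called 10 of the 12 (0.106% of all genes), and in 9 of the 12 the days did not overlap (0.646% of all genes). Both counts follow in part from the choice of the genes and are no separate support. Sox11, a transcription factor of progenitor cells, stood at 6.13, 5.23, 2.35 and 2.79 CPM on day 3 and at 1.12, 0.692, 0.614 and 0.497 CPM on day 14. Every day 14 library lay below every day 3 library. The log2 fold change was -2.46 ± 0.36 (SE of the fit over all 12 libraries), with an adjusted p of 7.39e-05 in DESeq2. Nes, which encodes the intermediate filament nestin of progenitor and regenerating muscle cells, measured 1020.4, 1983, 479 and 697 CPM on day 3 and 351, 273, 83.3 and 227 CPM on day 14, again without overlap (-2.14 ± 0.43). Actc1, the cardiac actin that growing and regenerating muscle fibres also use, was at 633, 332, 119 and 151 CPM and then at 162, 35.3, 6.07 and 24.9 CPM. Its control library of day 14 lay above 2 of the day 3 libraries, yet each pair was lower (-2.84 ± 0.57). Casq2, a calcium-binding protein of the sarcoplasmic reticulum, held 115, 348, 83.8 and 50 CPM on day 3 and 31.4, 20.6, 17.6 and 19.9 CPM on day 14 (-2.56 ± 0.65). For these muscle-related genes the muscle share of each library is given further on, and its part in their differences was not tested.

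Lilrb4, Spp1, Hk3 and Tcirg1 stood on the same side, while the macrophage marker list described further on had a median log2 fold change of 0.13. Lilrb4, an inhibitory receptor of myeloid cells, measured 58.9, 77.4, 46.8 and 63.1 CPM on day 3 and 14.6, 22.5, 7.64 and 19.6 CPM on day 14. The days were separated by a gap, and the log2 fold change was -2.02 ± 0.33. Spp1, the secreted glycoprotein osteopontin of wound macrophages, stood at 369, 1224, 237 and 108 CPM on day 3, highest in the d-SMG library, and at 23.5, 95.4, 32.9 and 106 CPM on day 14. The days did not overlap, but the Alg pair was nearly level, with a log2 difference of -0.02 against -3.96 in the control pair. Hk3, the hexokinase of myeloid cells, was at 29.9, 24.2, 18.4 and 12.6 CPM and then at 7.18, 9.63, 3.89 and 7.83 CPM (-1.59 ± 0.34), and Tcirg1, a subunit of the vacuolar proton pump, at 74.4, 50.6, 58.1 and 53.1 CPM and then at 25, 32.2, 21.3 and 30.6 CPM (-1.13 ± 0.29). Neither gene overlapped between the days. The other 4 were Pnma8b, Map3k7cl, Rras2 (a small GTPase) and Adcy4 (an adenylyl cyclase), with log2 fold changes of -3.0, -1.47, -1.44 and -0.95, and DESeq2 did not call Adcy4 and Tcirg1. The log2 fold changes of all 12 ranged from -3.0 to -0.95, and from -2.78 to -0.92 without both libraries that stood apart.

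On the day 14 side the 12 leading genes were higher in 4 of 4 pairs, by the same choice. DESeq2 called 10 of the 12 (0.137% of all genes), and in 5 of the 12 the days did not overlap (0.956% of all genes). These counts too follow in part from the choice. Cst6, the epidermal protease inhibitor cystatin E/M, stood at 47.2, 4.34, 152 and 66 CPM on day 3 and at 473, 186, 623 and 236 CPM on day 14. The lowest day 14 library, d-SMG, still lay above the highest day 3 library, s-GAG, and the log2 fold change was 2.97 ± 0.74. Crabp2, a retinoic acid-binding protein of skin, measured 86.5, 43.8, 214 and 124 CPM and then 167, 361, 542 and 312 CPM. Each pair was higher, with overlap between the control library of day 14 and the s-GAG library of day 3 (1.61 ± 0.41). Gsdma, the epidermal gasdermin A, was at 4.12, 0.563, 18.5 and 5.93 CPM on day 3 and at 26.5, 17, 27.7 and 51 CPM on day 14 (2.56 ± 0.65). Ggct, an enzyme of the glutathione cycle, had 68, 47.4, 86.1 and 72 CPM on day 3 and 139, 116, 266 and 151 CPM on day 14, without overlap and with pair differences from 1.04 to 1.63 on the log2 scale. Serhl2 was at 6.13, 7.72, 6.88 and 4.7 CPM on day 3 and 23.1, 15.4, 32.2 and 17.1 CPM on day 14 (1.75 ± 0.29). Tprg1 was listed at 1.3, 0.0804, 1.83 and 2.11 CPM and then at 6.01, 3.78, 7.16 and 8.45 CPM. The d-SMG value of day 3 came from a single read, and the other pairs differed by 1.91 to 2.12 on the log2 scale.

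The remaining 6 were Mup5, Golga7b, Pinlyp, Micalcl, Slc19a2 (a thiamine transporter) and Tm4sf4 (a membrane protein), with log2 fold changes of 2.81, 1.95, 1.81, 1.61, 1.23 and 2.31. Mup5 belongs to the major urinary proteins, a family of near-identical copies between which reads can be split, and its value is uncertain. For Tm4sf4 the control pair was level, at 0.084 and 0.0977 CPM, both from 2 reads. The 12 higher genes ranged from 1.23 to 2.97 on the log2 scale, and from 1.08 to 2.67 without both libraries that stood apart.

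**Figure D1:**
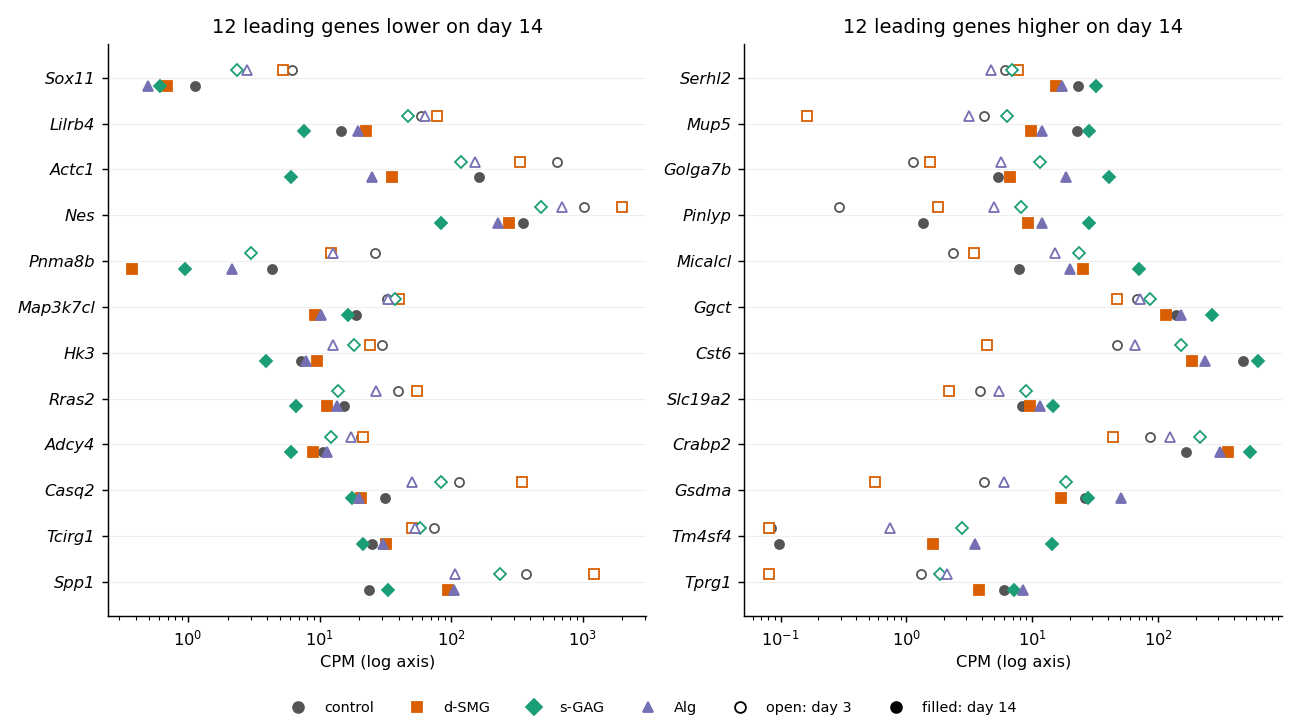
CPM (log axis) of the 12 leading genes lower and the 12 leading genes higher on day 14, one row per gene, with open symbols for day 3, filled symbols for day 14 and one symbol shape per treatment. Open and filled symbols stand apart in 9 of the lower and 5 of the higher genes, Sox11 and Serhl2 among them, while Tm4sf4 and Actc1 overlap.

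Among the lists, only the hair follicle markers had a higher median than the cornified layer genes, which build the outer barrier. Of 25 cornified layer genes 23 were tested, all 23 were fitted higher on day 14, and their median log2 fold change was 2.53, against 0.01 over all genes tested, 51.2% of which were fitted higher. In 12 of the 23 all 4 pairs were higher (6.0% of all genes), in 4 the days did not overlap (0.956% of all genes), and 14 were under the unadjusted p of 0.05 (3.08% of all genes). Summed over the list, cornified genes took 0.0982, 0.00152, 0.197 and 0.107% of reads on day 3 and 0.816, 0.181, 0.184 and 0.652% on day 14. The s-GAG pair was level, and the d-SMG pair started from almost none. Exact Clopper-Pearson 95% intervals of the list shares printed here reached at most 13% of the share to either side, and they cover counting error only. The median difference of the list by pair was 2.9, 5.05, 0.48 and 1.87, and without the d-SMG library of day 3 and the s-GAG library of day 14 the fitted median was 2.3.

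Sbsn, which encodes suprabasin of the upper epidermal layers, measured 256, 11.5, 611 and 374 CPM on day 3 and 1739, 677, 1317 and 1184 CPM on day 14. Every day 14 library lay above every day 3 library, with a log2 fold change of 2.53 ± 0.78. Abca12, the lipid transporter that fills the lamellar granules of the barrier, stood at 5.33, 0.0804, 18.7 and 12.1 CPM and then at 22.5, 35.1, 66.3 and 35.5 CPM (2.54 ± 0.83), and Klk7, a protease of corneocyte shedding, at 8.1, 0.322, 34.3 and 18.5 CPM and then at 61, 36.6, 82.4 and 68 CPM (2.57 ± 0.85). Both also separated the days. Tgm1, the transglutaminase that crosslinks the cornified envelope, was at 2.56, 1.45, 7.74 and 9.45 CPM and then at 12.1, 8.37, 10.8 and 30.9 CPM, higher in each pair by 0.48 to 2.45 on the log2 scale (1.7 ± 0.52).

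Basal keratinocytes differed less. Of 11 basal markers 10 were fitted higher, 3 in all 4 pairs (6.0% of all genes). The median was 1.1, which became 0.54 without both libraries that stood apart. Their share of reads was 0.58, 0.109, 1.28 and 1.08% on day 3 and 0.759, 2.14, 2.55 and 1.51% on day 14, higher in each pair and most in the d-SMG pair. The pair medians of the single markers were 0.32, 4.96, -0.52 and 0.37, and in the s-GAG pair 5 of the 11 were higher. Tp63, the master transcription factor of stratified epithelium, measured 59.4, 10.5, 221 and 157 CPM and then 106, 330.5, 317 and 185 CPM (1.39 ± 0.68). Krt15, a keratin of basal and bulge cells, had 622, 3.54, 1361 and 779 CPM on day 3 and 1675, 1685, 3876 and 1149 CPM on day 14 (2.05 ± 1.08). Outside the d-SMG pair the Krt15 differences were 0.56 to 1.51 on the log2 scale.

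Wound-edge keratinocyte genes were also fitted higher on the later day. Of 15 such genes 10 were tested, and all 10 were fitted higher, with a median of 1.61 (1.15 without both libraries). Of the 10, 4 were higher in all 4 pairs (6.0% of all genes). The pair medians were 0.33, 5.77, 1.21 and 1.36, and 6, 8, 9 and 10 of the 10 were higher in these pairs. The list took 0.116, 0.0128, 0.302 and 0.279% of reads on day 3 and 0.115, 0.684, 1.18 and 0.428% on day 14. In the control pair this share was level. Krt17, a stress keratin that hair follicles express too, stood at 224, 3.86, 1264 and 1073 CPM on day 3 and at 628, 2570.1, 7748 and 1804 CPM on day 14, with the largest day 14 value in the s-GAG library (2.4 ± 1.1). Serpinb2, an inhibitor of plasminogen activators, was at 7.31, 0.483, 6.54 and 6.96 CPM and then at 15, 31.5, 15.7 and 18.1 CPM, without overlap (1.98 ± 0.74). The keratinocyte share moved with these genes in the d-SMG pair, and its part in the differences was not tested.

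Hair follicle markers had the highest median of the lists. All 28 were tested, and 27 were fitted higher with a median of 2.74 (2.45 without both libraries). In all 4 pairs 14 were higher (6.0% of all genes), and in none did the days separate (0.956% of all genes). Their share of reads was 0.00436, 0.00242, 1.24 and 0.359% on day 3 and 0.272, 0.53, 0.515 and 4.99% on day 14. The control and d-SMG libraries of day 3 were nearly free of follicle RNA, whereas the s-GAG library of day 3 held more than 3 of the day 14 libraries. Krt31, a hair cortex keratin, had 0.042, 0.322, 132 and 26.3 CPM on day 3 and 3.03, 12.2, 202 and 714 CPM on day 14 (3.58 ± 1.49). Its s-GAG library of day 3 lay above the control and d-SMG libraries of day 14. Krt71, a keratin of the inner root sheath, had 10.3, 1.85, 1055 and 439.5 CPM and then 205, 539, 1061 and 4272 CPM, and its s-GAG pair was level. Krt27 of the same sheath was at 0.042, 0.161, 90.2 and 21.5 CPM and then at 27.9, 31.6, 78.9 and 444 CPM. Krt36 had no read in the control and d-SMG libraries of day 3, where a count of 0 allows up to 0.126 and 0.241 CPM (3 reads, counting error only), and measured 6.82 and 4.46 CPM in the s-GAG and Alg libraries.

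Of 12 sebaceous gland markers tested, 11 were fitted higher with a median of 1.11, which became 0.44 without both libraries. In all pairs 4 were higher (6.0% of all genes). Awat2, an enzyme of wax ester synthesis, was at 26.8, 42.9 and 19 CPM in the control, s-GAG and Alg libraries of day 3 and at 64.4, 62.7, 98.6 and 29.4 CPM on day 14. It had no read in the d-SMG library of day 3. Scd, the stearoyl-CoA desaturase, held 115, 50.9, 114 and 59.1 CPM on day 3 and 116, 215, 168 and 115 CPM on day 14. The days did not overlap, but the control pair was level (0.94 ± 0.46).

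**Figure D2:**
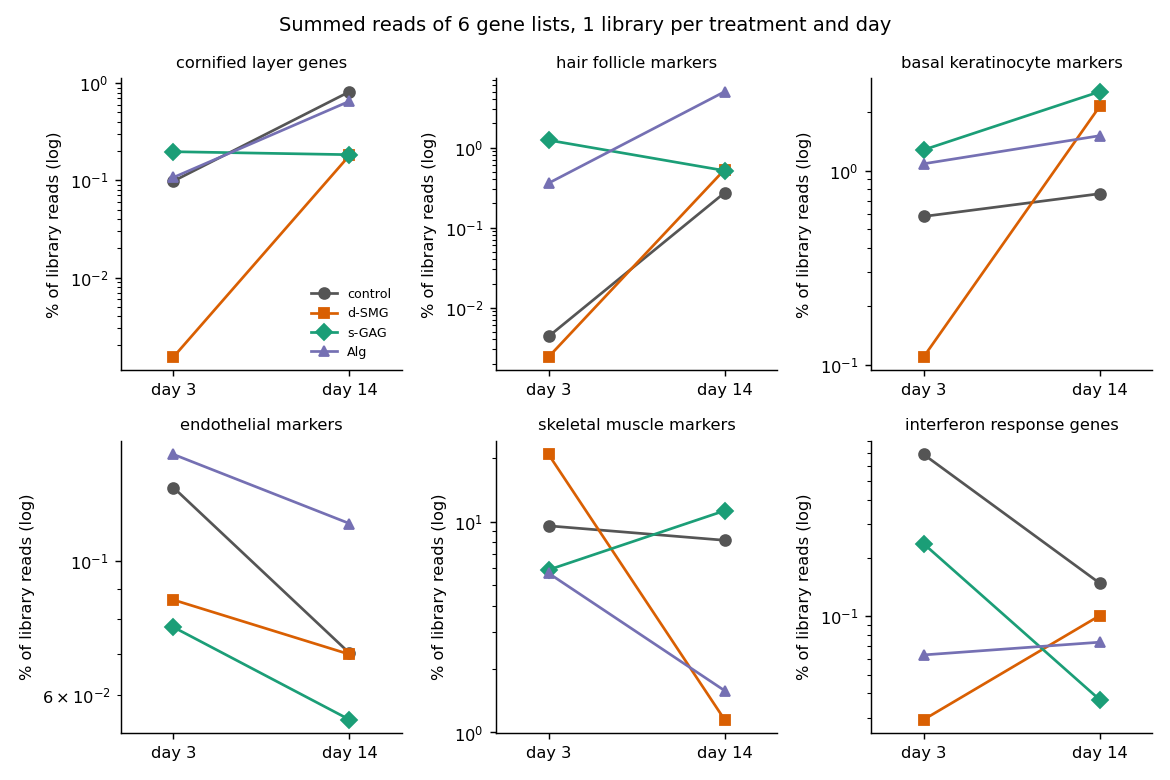
Share of all library reads (log axis, %) taken by 6 gene lists on day 3 and day 14, with one line per treatment and 1 library per point. Cornified, hair follicle and basal lines start lowest in the d-SMG library of day 3, the 4 endothelial lines all slope down, and the interferon lines cross, from 0.686% to 0.148% in the control pair and from 0.0293% to 0.101% in the d-SMG pair.

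Endothelial markers were mostly lower on day 14. Higher were 3, 0, 6 and 3 of the 21 in the control, d-SMG, s-GAG and Alg pairs. All 21 were tested, all 21 were fitted lower with a median of -0.61, and 12 were lower in all 4 pairs (5.15% of all genes). In none did the days separate (0.646% of all genes), and 4 were under the unadjusted p of 0.05 (1.87% of all genes). The list took 0.132, 0.0862, 0.0777 and 0.15% of reads on day 3 and 0.0703, 0.070, 0.0546 and 0.115% on day 14, lower in every pair. The pair medians were -0.56, -1.15, -0.52 and -0.37, the narrowest range among lists whose 4 pair medians had the same sign, and the median was -0.58 without both libraries that stood apart. Tie1, an endothelial receptor tyrosine kinase, measured 79.1, 66.5, 23.3 and 48 CPM on day 3 and 22.1, 22.5, 13.1 and 40.8 CPM on day 14, and only the s-GAG library of day 3 lay within the day 14 range (-1.04 ± 0.39). Erg, an endothelial transcription factor, was at 45.2, 45, 31.9 and 45.8 CPM and then at 33.4, 19.5, 22.2 and 35.4 CPM, and the s-GAG library of day 3 lay below the control and Alg libraries of day 14 (-0.61 ± 0.27). Esam, a junction protein, had log2 fold change -0.71 ± 0.28, and Apln, the ligand apelin of sprouting tip cells, -1.15 ± 0.51.

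Growth factor genes were mixed. Of 31 genes 28 were tested, 3 were higher (6.0% of all genes) and 3 lower (5.15% of all genes) in all 4 pairs, and the median was -0.14 (-0.07 without both libraries). Vegfa, the main growth factor of vessels, stood at 94.4, 227, 126 and 177 CPM on day 3 and at 92.6, 109.9, 44 and 106 CPM on day 14. The control pair was level at -0.03 and the dressed pairs were lower by log2 differences of -0.74 to -1.52 (-0.82 ± 0.35). In the interaction test described at the end, the control difference lay 1.05 ± 0.83 above that of the dressed pairs, with an edgeR FDR of 0.871. Egf, the epidermal growth factor, was at 5.17, 30.6, 5.1 and 2.89 CPM and then at 3.22, 1.38, 1.36 and 2.11 CPM, highest by far in the muscle-rich d-SMG library of day 3 (-2.12 ± 0.85). Pdgfb, a growth factor of pericytes and fibroblasts, measured 11.7, 24, 11.6 and 15.7 CPM on day 3 and 9.62, 9.44, 8.93 and 10.3 CPM on day 14, without overlap (-0.68 ± 0.31). On the other side, Tgfa, an EGF receptor ligand of keratinocytes, had 2.65, 0.563, 3.9 and 3.04 CPM on day 3 and 5.66, 7.68, 4.43 and 9.88 CPM on day 14, and Fgf22, made in skin, 0.252, 0.0804, 1.09 and 0.392 CPM and 1.42, 1.2, 1.43 and 7.64 CPM. Both separated the days, and their log2 fold changes were 1.56 ± 0.51 and 2.64 ± 0.69, with Fgf22 resting on low counts.

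Macrophage genes split. Of 20 markers 19 were tested, 10 were fitted higher and 9 lower with a median of 0.13 (0.08 without both libraries), and the pair medians were -0.65, -0.44, -1.1 and 1.08. The 3 that were lower in all 4 pairs (5.15% of all genes) were Spp1, Trem2 and Gpnmb, genes of lipid-laden and phagocytic macrophages. Spp1 and Gpnmb separated the days (0.646% of all genes). Trem2, a lipid-sensing receptor, had 39.9, 24.4, 27.9 and 14.6 CPM on day 3 and 18.4, 12.2, 10.2 and 6.59 CPM on day 14, and its pair differences were the most even of the 3, from -1.44 to -0.99 (-1.21 ± 0.43). Gpnmb, a lysosomal glycoprotein, measured 518, 455, 617 and 416 CPM and then 331, 203, 115 and 327 CPM (-1.12 ± 0.49). Lyz2, the lysozyme of myeloid cells, was at 2506, 1323, 1016 and 484 CPM and then at 779.8, 823, 311 and 600.2 CPM, lower in 3 of 4 pairs and higher in the Alg pair (-0.98 ± 0.42). Cd163 and Mrc1, which the study's text also names, are given as FPKM (reads scaled by gene length and library total). Cd163 had 43.8, 40.4, 32.2 and 49.6 FPKM on day 3 and 88.2, 24.1, 2.7 and 176 FPKM on day 14. Mrc1 had 33.8, 26.6, 27.8 and 37.2 FPKM and then 62.9, 29.3, 5.12 and 98.4 FPKM. Both were higher in the control and Alg pairs and lower in the s-GAG pair.

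Reads of the neutrophil marker list were few on both days. Of 19 markers 9 passed the filter on low counts, S100a8, Il1r2, Mmp8 and Trem1 among them. Those left out include Mpo, Elane, Ctsg, Prtn3, Ltf, Camp and Ngp, which encode granule proteins. The number of neutrophils was not measured. The list took 0.0148, 0.00277, 0.00569 and 0.0146% of reads on day 3 and 0.00555, 0.00762, 0.00515 and 0.030% on day 14, and its median was 0.62, or -0.20 without both libraries that stood apart. T and NK cell markers had a median of 0.39 over 15 genes, or 0.11 without both libraries, with 3 higher in all pairs (6.0% of all genes). Their pair medians were 0.72, 2.12, -1.01 and 0.72, with the s-GAG pair below 0. Cd3d, a chain of the T cell receptor complex, measured 1.05, 0.483, 4.82 and 2.16 CPM on day 3 and 6.01, 16.5, 10.4 and 3.73 CPM on day 14 (1.94 ± 0.70). Of 9 B and plasma cell markers 5 were tested, all with few reads and all fitted higher, with a median of 0.88 (0.71 without both libraries). Their pair medians were 1.37, 1.87, 0.01 and -0.03. The list's share of reads was lower on day 14 in the s-GAG and Alg pairs and higher in the control and d-SMG pairs. One member, Pax5, the B cell transcription factor, separated the days (0.956% of all genes) at very low levels. It had 0.126, 0.161, 0.229 and 0.245 CPM on day 3 and 0.488, 0.818, 1.16 and 0.559 CPM on day 14 (1.91 ± 0.48).

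Cytokines and chemokines, 28 tested of 29, had a median of 0.15 (0.37 without both libraries), with pair medians of -1.42, 0.89, -1.09 and 0.92. The control and s-GAG pairs lay below 0, and the d-SMG and Alg pairs above. Il1b, the inflammasome cytokine, stood at 11.3, 4.66, 8.2 and 6.52 CPM on day 3 and at 11.5, 24.9, 6.54 and 26.3 CPM on day 14, level in the control pair, a little lower in the s-GAG pair and higher in the other pairs (1.13 ± 0.53). Cxcl9, an interferon-induced chemokine for T cells, was at 102, 13.1, 33.8 and 15.5 CPM and then at 34.8, 19, 7.84 and 8.32 CPM (-1.15 ± 0.50).

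The median difference of the interferon response genes had the same signs by pair. Promoters of many such genes carry the interferon-stimulated response element (ISRE). In the RefSeq promoters of the rat (build GRCr8, 250 bases before to 50 after the start), the letters GAAANNGAAA on either strand were found in 15 of the 21 list members with a promoter entry (71.4%), against 3.92% of 33469 promoters. Whether members with and without a match differed in the split described next was not tested. The windows of 4 members are shown as examples. They are Oasl2 and the 3 genes of highest mean level with a single match before the start, printed 5′ to 3′ on the strand of the gene up to the start at most, with the match in capitals, here in its reverse complement TTTCNNTTTC.
Gbp2: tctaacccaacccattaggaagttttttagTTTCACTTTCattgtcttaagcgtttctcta
Ifit3: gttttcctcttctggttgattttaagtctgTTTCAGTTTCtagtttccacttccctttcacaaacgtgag
Gbp5: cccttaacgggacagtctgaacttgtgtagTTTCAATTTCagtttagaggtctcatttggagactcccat
Oasl2: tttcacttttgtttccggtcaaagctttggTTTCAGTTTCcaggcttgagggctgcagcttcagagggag
The windows lie at chr2:234005666-234005726 (Gbp2), chr1:241527252-241527321 (Ifit3), chr2:233910913-233910982 (Gbp5) and chr12:47383297-47383366 (Oasl2), and the first matching base lies 31, 44, 56 and 151 bases before the start, respectively. A match of letters is a description and not a measured binding site. By comparison, the AP-1 letters TGANTCA were found in 3 of 21 cornified layer genes with a promoter entry (14.3%), against 7.33% of all promoters.

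Of 29 interferon genes tested, 27 were fitted lower on day 14 with a median of -0.91. None was lower or higher in all 4 pairs (5.15% and 6.0% of all genes). The control pair was higher for 1 of the 29 and the s-GAG pair for 2, while the d-SMG pair was higher for 28 and the Alg pair for 21. The pair medians were -2.38, 1.27, -2.52 and 0.28. Gbp2, an interferon-induced GTPase, was at 1227, 98.3, 405 and 133 CPM on day 3 and at 259.5, 192, 70.3 and 134 CPM on day 14. Ifit3, an RNA-binding antiviral protein, measured 770.1, 7.88, 161 and 26.4 CPM on day 3 and 64.9, 41.3, 23.5 and 47.6 CPM on day 14. The control and s-GAG libraries of day 3 held the highest level of both genes, and on day 14 the s-GAG library held the lowest. Gbp5 had 269, 17.4, 173 and 41.3 CPM and then 102, 51.6, 11.7 and 38.6 CPM, and Oasl2, of the oligoadenylate synthetase family, 134, 10.5, 48 and 9.85 CPM and then 20.7, 20.7, 3.34 and 16.2 CPM. The fitted log2 fold changes were -1.08 ± 0.71 for Gbp2, -1.09 ± 1.1 for Ifit3 (edgeR FDR 0.924), -0.89 ± 0.84 for Gbp5 (edgeR FDR 0.916) and -1.31 ± 0.85 for Oasl2, and the sign of Ifit3 reversed without the control library of day 3, to 0.34. Herc6, Cmpk2 and Stat2, further interferon-induced genes, had log2 fold changes of -1.62 ± 0.84, -1.74 ± 0.97 and -0.87 ± 0.46. Cxcl11, a chemokine of the same response, was at 5.92 CPM in the control library of day 3 and at 0.244 CPM in that of day 14 (-2.66 ± 1.23). The median of the list was -1.28 without both libraries that stood apart, and its sign turned, to 0.15, without the control library of day 3.

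**Figure D3:**
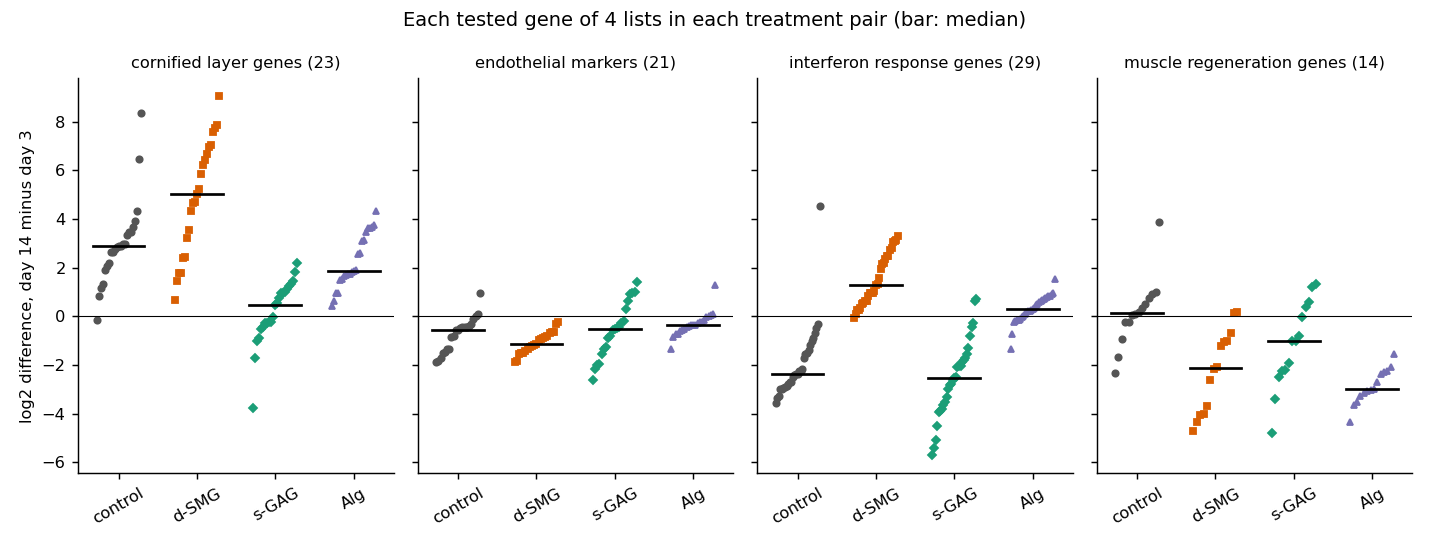
Log2 difference of day 14 minus day 3 for each tested gene of 4 lists in each treatment pair, genes in rising order within a pair and a bar at the median. Interferon response genes lie below 0 in the control and s-GAG pairs (medians -2.38 and -2.52) and mostly above 0 in the d-SMG and Alg pairs (1.27 and 0.28), while endothelial medians lie below 0 in all 4 pairs.

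The collagens had no common direction. Over 23 genes the median was 0.02 (0.19 without both libraries), with pair medians of 1.3, 0.41, -1.53 and 0.45. In all 4 pairs 1 was higher and 1 lower (6.0% and 5.15% of all genes). Collagen reads made up 1.2, 0.881, 3.45 and 1.95% on day 3 and 4.26, 2.86, 0.96 and 3.02% on day 14, more in 3 pairs and less in the s-GAG pair. Col1a1, a chain of the main fibrillar collagen, had 1634, 1584, 6868 and 2916 CPM on day 3 and 10379, 6426, 4636 and 3938 CPM on day 14, higher in 3 of 4 pairs (0.82 ± 0.72, edgeR FDR 0.908). Col7a1, the anchoring fibril collagen that keratinocytes and fibroblasts make, was the gene higher in all pairs, at 130.4, 42.2, 203 and 175 CPM and then at 135, 326, 361 and 177 CPM, though the control and Alg pairs differed by only 0.05 and 0.01 on the log2 scale (0.91 ± 0.49). Col11a1, a minor fibrillar collagen, was the one lower in all pairs, at 33.4, 37.6, 48.4 and 40.2 CPM and then at 31.2, 22.3, 4.16 and 31.4 CPM, without overlap (-1.15 ± 0.60). Col24a1 and Col16a1 had log2 fold changes of -1.57 ± 0.61 and 1.07 ± 0.62.

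Fn1, fibronectin of the provisional wound matrix, measured 588, 933, 741 and 633 CPM on day 3 and 340.1, 349.7, 363 and 601 CPM on day 14, lower in 4 of 4 pairs and nearly level in the Alg pair (-0.79 ± 0.46). Over the 30 noncollagen matrix genes the median was 0.03 (0.07 without both libraries), with 1 higher and 2 lower in all pairs (6.0% and 5.15% of all genes). Over the 28 matrix proteases and inhibitors it was 0.15, also with 1 higher and 2 lower. The sign of the latter median turned without both libraries, to -0.10. Plau, the urokinase that activates plasmin, was at 50.3, 45.8, 30.6 and 39.2 CPM and then at 18.7, 25.7, 7.77 and 31.2 CPM, and only the s-GAG library of day 3 lay within the range of day 14 (-1.06 ± 0.39). Of the 23 coagulation, fibrinolysis and complement genes tested, 3 were higher and 4 lower in all pairs (6.0% and 5.15% of all genes).

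The 24 skeletal muscle markers took 9.56, 20.9, 5.91 and 5.7% of reads on day 3 and 8.17, 1.15, 11.3 and 1.58% on day 14. The d-SMG library of day 3 was the richest and that of day 14 the poorest. Of the 24 genes 23 were fitted lower with a median of -1.49, but the pair medians were -0.50, -4.52, 1.15 and -1.99, and the fitted median was -0.64 without both libraries that stood apart. Mybpc2, the fast myosin-binding protein C, was the gene lower in all pairs, at 1429, 7262, 1065 and 972 CPM on day 3 and at 367, 58.2, 969 and 293 CPM on day 14 (-2.85 ± 1.69). Tnni1, the slow troponin I, was lower in 3 of 4 pairs (-1.19 ± 0.73).

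The 14 muscle regeneration genes were all fitted lower on day 14, with a median of -1.45 and of -0.66 without both libraries. In all 4 pairs 3 were lower (5.15% of all genes). Myog, the transcription factor myogenin of fusing myoblasts, measured 239, 282, 15.8 and 158 CPM on day 3 and 124, 13.8, 7.84 and 12.4 CPM on day 14. The s-GAG pair was low on both days, and all 4 pairs were lower, by log2 differences of -0.95 to -4.35 (-2.67 ± 1.01). Mymk, the fusion protein myomaker, stood at 16.8, 9.89, 1.89 and 6.32 CPM and then at 5.18, 4.15, 1.84 and 0.621 CPM, level in the s-GAG pair (-1.57 ± 0.61). Ncam1, an adhesion molecule of myoblasts and nerve, was higher in the control pair and lower in the dressed pairs, with pair differences of 0.75, -2.1, -2.22 and -2.28 (-1.46 ± 0.55). Cdh15, the M-cadherin of satellite cells, was lower in 3 pairs (-2.32 ± 0.94). The regeneration list took 0.141, 0.116, 0.255 and 0.103% of reads on day 3 and 0.284, 0.104, 0.0153 and 0.0131% on day 14. In the control pair this share was higher on day 14 and the muscle marker share given above was lower. In the s-GAG pair it was the reverse, and in the d-SMG and Alg pairs both shares were lower. The part of the muscle marker share in these values was not tested.

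Among signalling genes, 25 of 28 WNT pathway genes tested were fitted higher (51.2% of all genes). In all 4 pairs 7 were higher (6.0% of all genes), and the median was 0.66 (0.51 without both libraries). The pair medians were 0.65, 1.79, 0.32 and 0.21, and 24, 25, 17 and 16 of the 28 were higher in these pairs. The list's share of reads was lower on day 14 in the s-GAG pair, at 0.0551 and then 0.0351%, and higher in the other pairs. Wnt11, a ligand, was at 1.09, 0.965, 3.73 and 2.11 CPM and then at 1.66, 2.45, 7.5 and 2.92 CPM, and Fzd10, a receptor, at 1.43, 1.37, 7.34 and 6.56 CPM and then at 2.39, 5.1, 12.9 and 7.83 CPM. Each pair was higher, by less than the spread between treatments on a day (0.84 ± 0.32 and 0.85 ± 0.37). Of 26 TGF-beta and BMP genes, 3 were higher and 1 lower in all pairs (6.0% and 5.15% of all genes). The lower one was Smad3, a mediator of TGF-beta signals, at 22.1, 35.9, 11.6 and 18.7 CPM and then at 18.3, 10.1, 6.68 and 12.1 CPM (-0.89 ± 0.39). Fst, the activin antagonist follistatin, and Bmpr1b, a BMP receptor, had log2 fold changes of 1.1 ± 0.46 and -1.89 ± 0.70, each with 1 pair on the other side.

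Immediate early genes were mostly fitted higher on day 14. Of 16 tested, 13 were fitted higher with a median of 0.34 (0.45 without both libraries). The pair medians were 0.48, 0.62, 0.12 and -0.03, and 11, 11, 9 and 8 of the 16 were higher in these pairs. In all 4 pairs 2 were higher (6.0% of all genes). The list's share of reads was lower on day 14 in the s-GAG and Alg pairs and higher in the control and d-SMG pairs. Junb, an AP-1 subunit, measured 55, 69.6, 61.9 and 52.9 CPM on day 3 and 86.9, 110.0, 112 and 67.3 CPM on day 14, with the lowest day 14 library, Alg, below the d-SMG library of day 3 (0.64 ± 0.22). Ier2 was at 13.6, 15.1, 17.5 and 12.5 CPM and then at 17, 33.7, 77.1 and 13.6 CPM (1.0 ± 0.38), and Egr1, a transcription factor of the injury response, was higher in 3 of 4 pairs (1.32 ± 0.57).

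Of 23 glycolysis and hypoxia genes tested, 4 were lower and 1 higher in all pairs (5.15% and 6.0% of all genes). The median was -0.43 (-0.34 without both libraries). The pair medians were -0.85, -1.14, 0.54 and 0.10, and 2, 9, 15 and 14 of the 23 were higher in these pairs. The list took 0.406, 0.609, 0.279 and 0.268% of reads on day 3 and 0.223, 0.269, 0.445 and 0.265% on day 14. Besides Hk3, the lower genes included Hk2, the hexokinase of muscle and of growing cells, at 73.1, 241, 53.7 and 101 CPM and then at 52.3, 30, 5.18 and 66.9 CPM (-1.7 ± 0.69), and Slc2a3, a glucose transporter, at 19.1, 22.8, 10.6 and 17.7 CPM and then at 10.4, 9.19, 5.11 and 16 CPM (-0.80 ± 0.36). For Hk2 the d-SMG and s-GAG pairs lay farthest apart, with log2 differences of -3.01 and -3.35, against -0.48 and -0.59 in the control and Alg pairs. Of 22 cholesterol synthesis genes 20 were fitted higher, with a median of 0.74 that was 0.23 without both libraries. Lss, the lanosterol synthase, separated the days, at 14, 7.24, 20.9 and 22 CPM and then at 29.7, 35, 24.1 and 23.5 CPM (0.92 ± 0.36). None of the 28 proliferation genes was higher or lower in all pairs (6.0% and 5.15% of all genes). The fitted median was 0.19, and its sign turned without both libraries, to -0.21. None of the 28 was higher in the control pair (median -0.91), while 27, 17 and 24 were higher in the d-SMG, s-GAG and Alg pairs.

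**Figure D4:**
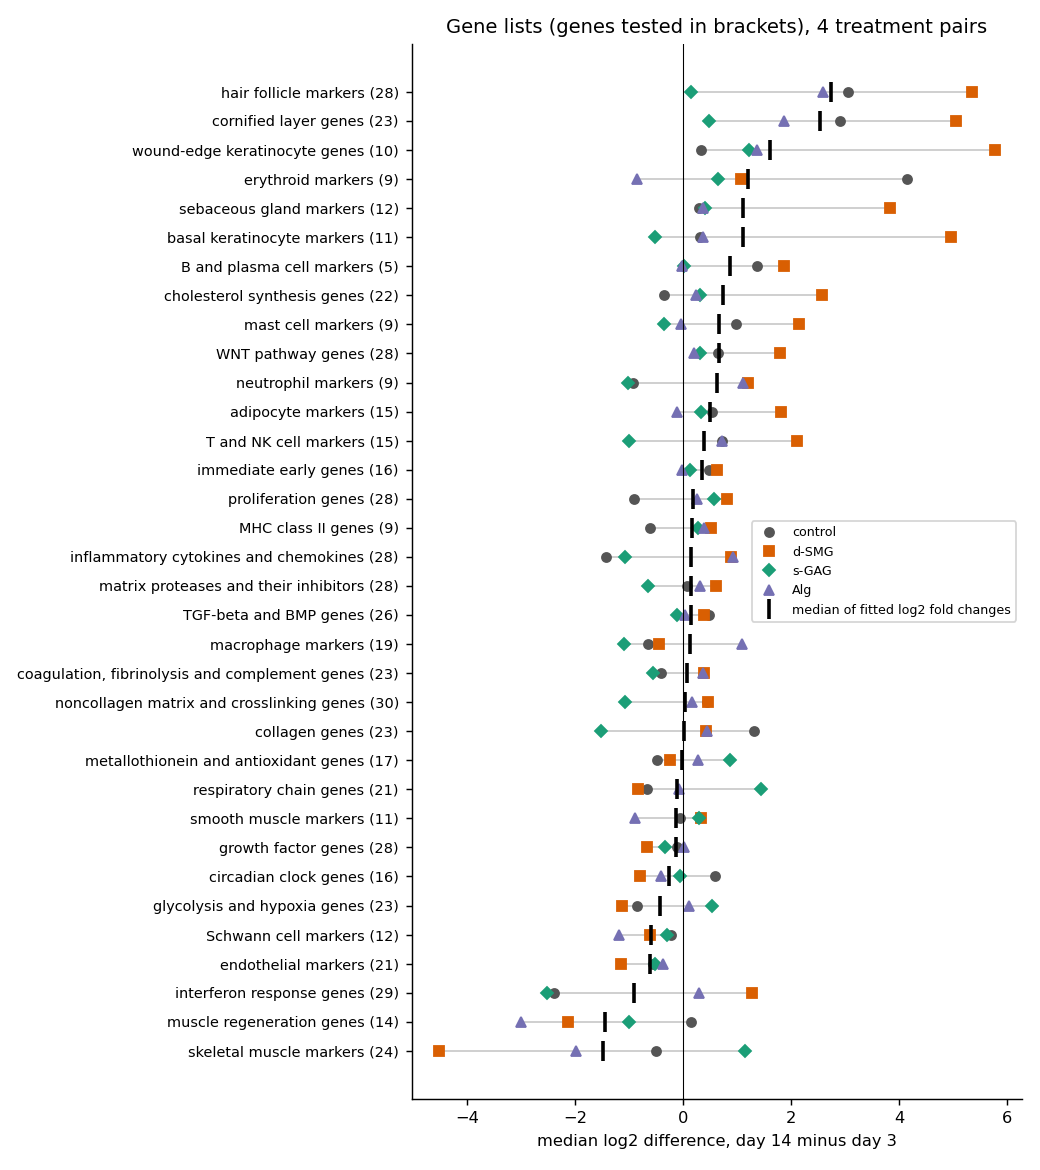
Median log2 difference of day 14 minus day 3 for the gene lists, with one symbol per treatment pair, a grey line over their range and a black bar at the median of the fitted log2 fold changes. Hair follicle and cornified lists lie highest (2.74 and 2.53), skeletal muscle and muscle regeneration lists lowest (-1.49 and -1.45), and the 4 endothelial symbols all lie below 0.

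Of the genes taken from the text of the study, some are named there for these libraries and others for a separate qRT-PCR, so that the list is no independent evidence of a direction. Where the text writes Pdgf, both Pdgfa and Pdgfb were taken. Of the 21, 10 were fitted higher and 11 lower on day 14, with a median of -0.01 (0.08 without both libraries). One, Col7a1, was higher in all 4 pairs (6.0% of all genes), and Vegfa, Pdgfb and Il18 were lower in all 4 (5.15% of all genes). Il18, a cytokine of the inflammasome, was at 7.73, 6.84, 5.27 and 3.97 CPM on day 3 and at 6.88, 6.04, 4.77 and 3.91 CPM on day 14, differences within each pair of -0.18 to -0.02 on the log2 scale that are smaller than the spread between treatments on a day (-0.13 ± 0.25, edgeR FDR 0.964). Tnf, the early inflammatory cytokine, was at 2.23, 0.402, 1.78 and 0.833 CPM and then at 0.732, 1.38, 0.409 and 1.12 CPM, lower in the control and s-GAG pairs and higher in the other pairs (-0.53 ± 0.67, edgeR FDR 0.944).

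Whether the control wounds differed from the dressed ones in their course from day 3 to day 14 was tested as an interaction in the same model. The control side rests on 1 library a day, so that every SE of this test comes from the spread of the dressed libraries and assumes that control libraries vary alike. No gene passed an FDR of 0.05 in edgeR (0%), with a smallest FDR of 0.871, 535 genes were under an unadjusted p of 0.05 (3.32%), and DESeq2 called 17. Fos, an immediate early gene, led on the side of the control pair, with 7.26, 31.5, 25.1 and 10.8 CPM on day 3 and 146, 29, 17.7 and 16.6 CPM on day 14. Only the control pair was far apart, and the control difference exceeded that of the dressed pairs by 4.37 ± 0.80 on the log2 scale (SE). Myoc, which encodes the secreted protein myocilin, was at 11.2, 20.5, 30.7 and 30 CPM and then at 239, 6.11, 18.5 and 34.5 CPM (5.21 ± 1.0), and the provisional gene LOC108348108 at 4.7, 16, 21.3 and 12.5 CPM and then at 82.5, 8.31, 10.1 and 13.5 CPM (4.77 ± 0.81). On the other side stood RT1-CE16, at 538, 114, 382 and 163 CPM on day 3 and 2.34, 91.3, 171 and 381 CPM on day 14 (-7.82 ± 1.38), and RT1-A3, at 247, 68.6, 182 and 55.2 CPM and then at 3.03, 61.4, 118 and 135 CPM (-6.5 ± 1.12). In both, the control library of day 14 was the single low one. They are MHC class I genes on chromosome 20, a family of near-identical copies that differ between haplotypes, so that reads can be split between copies and the values are uncertain. Slc25a52, a mitochondrial carrier, was at 4.41, 4.18, 3.61 and 3.97 CPM on day 3, had no read in the control library of day 14 (up to 0.146 CPM for a count of 0), and stood at 4.28, 3.2 and 2.55 CPM in the dressed libraries of that day.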

How the data were processed

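Libraries were stranded and depleted of rRNA. The authors deposited read counts per gene without normalization and FPKM values scaled by gene length and library total. The submitters' processing notes name bcl2fastq, FastQC, TopHat2 and edgeR without roles. The genome build, the counting tool and whether it used strand are not given in the sources used here, and therefore overlapping genes cannot be told apart. Each table held 1 column of values that matches no described sample and was not used. Samples were grouped by their treatment labels.

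Counts of 25620 genes were fitted in edgeR 4.0.16 (R 4.3.3) over all 12 libraries with TMM normalization, filterByExpr, and treatment and day as terms (glmQLFit and glmQLFTest, two-sided, Benjamini-Hochberg FDR of 0.05). With 6 residual degrees of freedom, the BCV was 0.495. The interaction model added control by day terms and kept 4 residual degrees of freedom. Day 7 libraries served only to estimate spread and treatment terms. A value after ± is an SE of the fitted log2 fold change, its absolute value over the square root of F. It is not the spread between the 4 pair differences. Pair differences are log2 CPM with a prior count of 2. With 4 libraries a day and 1 per treatment, the number of libraries limits the precision more than their depth.

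Per direction, 12 genes with the largest fold change were to be named among called genes with the same sign in all pairs, at least 100 reads and no provisional symbol. None was called, and the smallest unadjusted p-values filled the places. Further genes are up to 4 of smallest p per list, 3 per direction of the interaction, and genes of the study's text. Gbp2, Ifit3 and Gbp5 were chosen after their values were seen. Of 704 entries in 35 lists, 700 were matched, 4 by synonym. The members and lists were chosen with earlier results of these data known. The scripts were tested on simulated data. The alternatives were RLE or library size scaling, other low-count filters, DESeq2 1.42.0, the 8 libraries alone, no replicate block, a fold change minimum, limma 3.58.1 on log2 FPKM plus 1 or 0.1, and fits without single libraries or treatments. The fit without both libraries that stood apart was added after seeing the data. Promoters came from RefSeq (GRCr8), and figures from matplotlib 3.10.9.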

Additional observations from a re-analysis of the deposited data

Results flagged for a closer look

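In groups of 4 libraries, 118 sets of values (the 24 leading genes and 35 list shares on each day) were searched for a library far from the other 3, by a gap of more than 0.83 of the range. Chance gives about 1 such set in 20, and 5 were found. Tprg1 on day 3 was 0.0804 CPM in the d-SMG library against 1.3 to 2.11 CPM in the others. Hair follicle markers on day 14 took 4.99% of reads in the Alg library against 0.272% to 0.530%, and neutrophil markers took 0.0300% in the same library against 0.00515% to 0.00762%. Growth factor genes took 0.0413% of reads in the control library of day 3 against 0.0523% to 0.0545%, and 0.0296% in the s-GAG library of day 14 against 0.0454% to 0.0478%.

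For 5 of the 35 lists the median difference of the control pair had the opposite sign to that of all 3 dressed pairs, a difference that was not tested for lists. The median log2 difference of muscle regeneration genes was 0.14 in the control pair and -3.0 to -1.01 in the dressed pairs. For MHC class II genes it was -0.61 against 0.28 to 0.52, for proliferation genes -0.91 against 0.26 to 0.81, for cholesterol synthesis genes -0.35 against 0.23 to 2.57, and for circadian clock genes 0.59 against -0.80 to -0.06.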

How the results depend on the processing

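The count of 0 genes higher and 0 genes lower held in every edgeR and limma fit tried, and in the leave-one-out fits both counts ranged from 0 to 0. DESeq2 called 22 higher and 17 lower genes, and 17 genes for the interaction, where every edgeR fit called 0. At an unadjusted p under 0.05 the 798 genes became 1468 with DESeq2, 533 with library size alone, 548 with a minimum of 50 reads in 4 libraries and 488 with the 8 libraries alone. Without single libraries they ranged from 359 to 1481, and without all s-GAG or all d-SMG libraries they were 1621 and 378. Without both libraries that stood apart they were 970. Of 1972 fold changes of 90 named genes under alternatives, 2 had the opposite sign, both of Ifit3, at 0.34 without the control library of day 3 and 0.27 without all control libraries, and its leave-one-out values ranged from -1.96 to 0.34. Of the list medians, 18 of 35 lists kept their sign under the scaling, leave-one-out and added alternatives. Among those that did not, the median of interferon response genes was 0.15 without the control library of day 3, and without the Alg library of day 14 the medians of neutrophil markers, macrophage markers, matrix proteases and cytokines were -0.62, -0.59, -0.26 and -0.24. That of growth factor genes was 0.03 without the s-GAG library of day 14. The median of T and NK cell markers kept its sign but ranged from 0.06 without the d-SMG library of day 3 to 1.31 without the s-GAG library of day 3.

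Treatment pairs the days by label only. Deviations from the day means correlated over genes between day 3 and day 14 at r = 0.05 for the control, -0.18 for d-SMG, -0.09 for s-GAG and 0.23 for Alg, and the fit with no replicate block called 0 genes higher and 0 lower, with 839 under the unadjusted p.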
